A study of Mus musculus with 6 samples.

Results

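The fatty acid synthesis and desaturation enzymes described here were the 10 genes Fasn, Acaca, Scd1, Scd2, Elovl1, Elovl5, Elovl6, Fads1, Fads2 and Acsl3, found by gene name among the 54532 genes of a table of transcript levels given as TPM, a unit that corrects for transcript length and sequencing depth. The RNA-seq libraries came from bone-marrow-derived macrophages (BMDMs) of C57BL/6 mice, which are primary macrophages grown from marrow in medium conditioned by L929 cells. Each of 3 groups held 2 libraries. The Untr group was left untreated, the LPS group was stimulated with lipopolysaccharide at 100 ng/ml over 2 h, and the Met + LPS group was pretreated over 6 h with metformin at 5 mM before an equal LPS stimulation. Metformin without LPS was not among the groups, so that metformin was compared only on top of LPS. The cells were plated in duplicate, and nothing in the sources used here ties a library to a mouse, so that the p-values below measure the spread between these libraries, which may be technical.

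De novo fatty acid synthesis begins when acetyl-CoA carboxylase makes malonyl-CoA, from which fatty acid synthase builds palmitate. Elongases of the Elovl family lengthen the chain, stearoyl-CoA desaturases make monounsaturated from saturated chains, and the Fads desaturases act together with Elovl5 on the essential fatty acids to form polyunsaturated ones such as arachidonic acid, the precursor of prostaglandins and leukotrienes in macrophages. Many of these genes are known targets of the transcription factor SREBP-1c (Srebf1) and of the liver X receptors, and metformin, a drug given for type 2 diabetes, is known to activate the kinase AMPK, which inhibits acetyl-CoA carboxylase.

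Promoter windows are shown for Fasn, Fads2 and Elovl6, which are among the 4 genes that fell furthest under metformin, and for Acsl3, which rose, so that the letters of transcription factor motifs in them can be compared. RefSeq promoter windows on GRCm38.p6, each of 300 bases around an annotated start site, were matched for 7 of the 10 genes (8 windows, Elovl1 having 2), and none was matched for Scd1, Scd2 and Fads1. The Acaca window (chr11:84195188-84195487) lies inside the gene, at an internal start site, and is counted among the 8. The windows below are those of Fasn (chr11:120824498-120824797, minus strand), Fads2 (chr19:10101454-10101753, minus strand), Elovl6 (chr3:129532136-129532435, plus strand) and Acsl3 (chr1:78657575-78657874, plus strand), each read in the direction of transcription. Capitals mark CCAAT, the letters bound by NF-Y, and GGGCGG, the letters bound by Sp1, on either strand, so that ATTGG and CCGCCC are capitals too.
Fasn: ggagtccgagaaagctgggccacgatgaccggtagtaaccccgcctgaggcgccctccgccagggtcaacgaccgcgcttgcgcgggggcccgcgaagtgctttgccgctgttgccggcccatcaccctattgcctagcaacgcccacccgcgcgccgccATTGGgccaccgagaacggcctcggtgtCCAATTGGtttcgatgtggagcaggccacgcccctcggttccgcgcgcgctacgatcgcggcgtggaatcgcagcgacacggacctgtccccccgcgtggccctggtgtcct
Fads2: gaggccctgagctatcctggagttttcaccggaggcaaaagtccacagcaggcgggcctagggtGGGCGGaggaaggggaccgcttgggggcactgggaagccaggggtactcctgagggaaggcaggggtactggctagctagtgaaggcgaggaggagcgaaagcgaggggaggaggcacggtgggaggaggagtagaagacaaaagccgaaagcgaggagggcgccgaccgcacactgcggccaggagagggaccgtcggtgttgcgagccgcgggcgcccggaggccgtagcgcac
Elovl6: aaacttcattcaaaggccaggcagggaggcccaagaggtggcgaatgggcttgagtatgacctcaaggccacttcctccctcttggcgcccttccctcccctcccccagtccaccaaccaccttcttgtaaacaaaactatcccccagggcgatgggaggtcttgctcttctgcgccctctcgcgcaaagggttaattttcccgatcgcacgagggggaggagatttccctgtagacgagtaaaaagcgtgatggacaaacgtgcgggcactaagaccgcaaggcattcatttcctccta
Acsl3: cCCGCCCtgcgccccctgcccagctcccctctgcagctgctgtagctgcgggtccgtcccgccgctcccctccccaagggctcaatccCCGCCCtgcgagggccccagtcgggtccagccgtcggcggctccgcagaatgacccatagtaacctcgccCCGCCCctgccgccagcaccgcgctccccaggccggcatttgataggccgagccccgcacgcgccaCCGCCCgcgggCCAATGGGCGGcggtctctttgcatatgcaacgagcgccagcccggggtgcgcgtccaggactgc
The Fasn window held CCAAT at 3 places, 90, 62 and 59 bases upstream of the start, the latter pair sharing letters on opposite strands. The Acsl3 window held CCAAT at 1 place and GGGCGG at 5, 1 of them sharing letters with the CCAAT, the Fads2 window held GGGCGG at 1 place, and the Elovl6 window held neither. Over the 8 windows of these genes CCAAT was found in 4 and GGGCGG in 4, beside 37.4% and 35.7% of all 32851 windows of the same length, searched on both strands. The sterol regulatory element TCACNCCAC was in 0 of the 8 windows and in 1.24% of all windows, and the liver X receptor element, AGGTCA repeated after 4 further letters, was in 0 of the 8 and in 0.0152% of all. These are matches of letters within 300 bases only.

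All 10 genes were expressed in untreated BMDMs, at levels that ran from 3.63 ± 0.800 TPM for Elovl6 to 202 ± 6.00 TPM for Elovl1 (mean ± SD, n = 2 in this and every group mean below). After Elovl1 came Fads1 (155 ± 4.64 TPM), then Scd2 (80.3 ± 2.73) and Elovl5 (79.2 ± 4.17), whose libraries overlapped. Below them the order was Fasn, Fads2, Acsl3, Scd1, Acaca and Elovl6, with no overlap between neighbours. LPS and metformin changed the order: Scd2 had rank 3 in Untr, 6 in LPS and 7 in Met + LPS, where its libraries overlapped those of Scd1, and Fads2 had ranks 6, 4 and 6. Elovl5 and Fads1 overlapped in Met + LPS, and Acaca and Elovl6 overlapped in LPS. The 10 genes summed to 663 ± 4.43 TPM in Untr, 386 ± 8.09 in LPS and 305 ± 0.671 in Met + LPS. Elovl1, Fads1 and Elovl5 together with Scd2 made up most of the Untr sum, and the Scd2 share of it went from 12.1% in Untr to 4.81% in LPS and 2.34% in Met + LPS, while the Elovl5 share went from 12.0% to 17.6% and 23.0%.

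**Figure D1:**
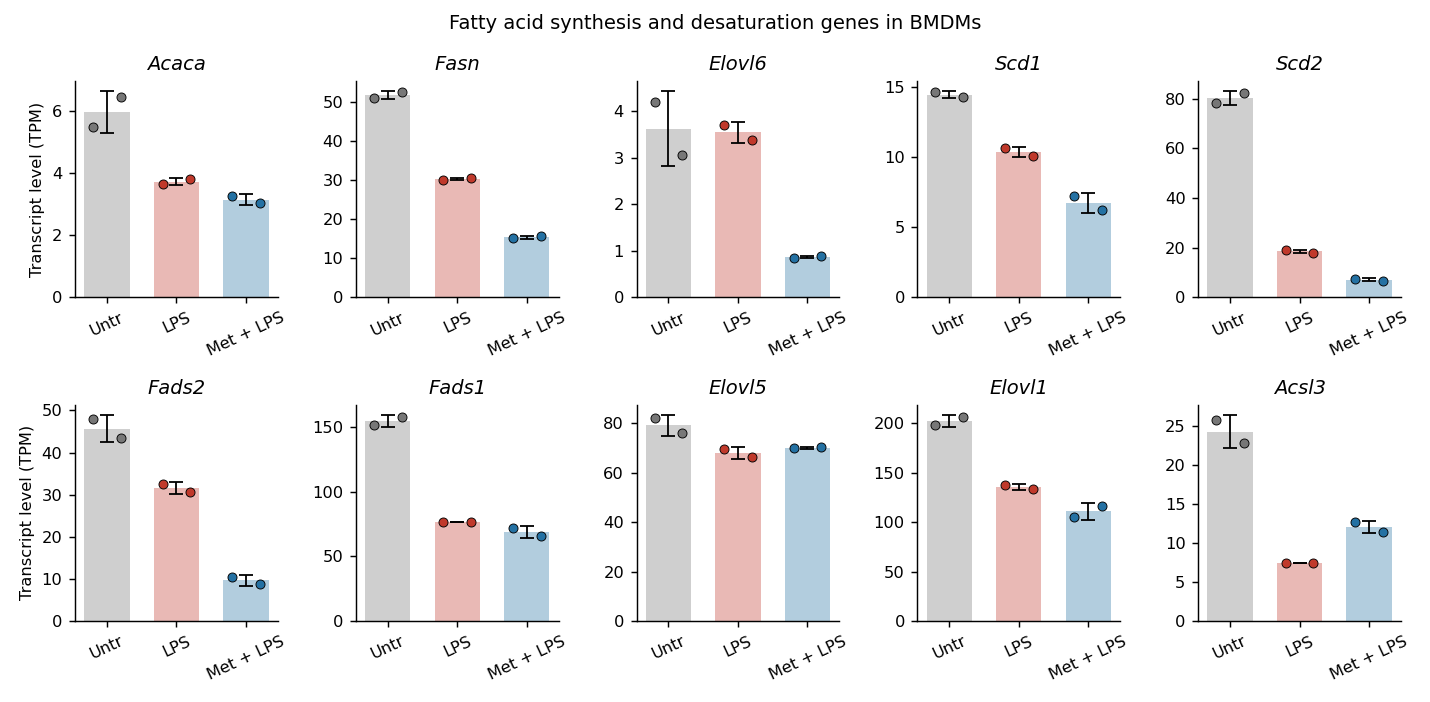
Transcript level in TPM (y axis, linear, from 0, with its own range for each gene) of the 10 genes in the Untr, LPS and Met + LPS groups; points are single libraries, bars are means and error bars are SDs of 2 libraries. Fasn, Scd1, Scd2 and Elovl1 step down from group to group, Elovl6 and Fads2 lie lowest in Met + LPS, and Acsl3 is lowest in LPS.

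The libraries matched their labels as macrophages. Each of 8 macrophage markers was detected in every library (lowest 12.9 TPM, Mertk). Their summed levels were 44621 and 46599 TPM in Untr, 37412 and 37903 in LPS, and 30877 and 30948 in Met + LPS. Most of this falling sum was Lyz2, with means of 34912, 26835 and 21292 TPM in Untr, LPS and Met + LPS. Cd14 (955, 2763 and 2089 TPM) and Adgre1 (1543, 1717 and 1358) were higher in LPS than in Untr. Fcgr1 was level between Untr and LPS (165 TPM in each) and lower in Met + LPS (74.4). Cd68, Csf1r, Itgam and Mertk were lower in LPS than in Untr. The part of these markers in the differences below was not tested. The B cell, T cell, fibroblast and adipocyte markers summed to at most 0.846 TPM per list. The adipocyte markers Plin1, Cidec and Lep were at 0 in every library, and Adipoq was at 0 in all but Untr replicate 1. The 7 granulocyte markers summed to 26.5 to 32.6 TPM in Untr and LPS and to 43.4 and 45.5 TPM in Met + LPS. Elane had means of 16.3, 8.64 and 15.6 TPM in Untr, LPS and Met + LPS. S100a9 had 4.90, 9.08 and 14.3 TPM, and S100a8 had 5.52, 5.90 and 8.53. Mpo had 2.29, 1.48 and 2.56 TPM, Ngp 1.93, 1.86 and 2.86, and Camp 0.260, 0.267 and 0.473. Ly6g was at 0 in 5 libraries. The part of these cells in the differences below was not tested. Tnf, Il1b, Cxcl10 and Nfkbia, which LPS induces, summed to 139 and 146 TPM in Untr and to 16722 to 17998 TPM in the libraries given LPS. The libraries held 25457016 to 30762755 reads as recovered from the TPM and exon lengths. In bulk RNA, fewer cells of a type and less RNA per cell cannot be told apart.

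LPS lowered the transcript levels of 9 of the 10 enzymes relative to total mRNA, and Elovl6 was the exception. Among all 12755 genes tested, however, 76.3% were called in this comparison, 60.1% lower and 16.2% higher, and the median gene was lower by 0.48 on the log2 scale, so that 9 lower of 10 sat near a general fall. The calls are from limma on log2(TPM + 1) with a Benjamini-Hochberg adjusted p-value under 0.01 over all tested genes, at any fold. When the libraries were rescaled by their median ratio, which put the median gene at -0.01 (30.6% of genes higher, 27.6% lower), Scd2, Acsl3, Fads1 and Fasn remained lower, Elovl5 was higher, and the other 5 genes were not called. The median of the 10 log2 fold changes was -0.57 as deposited and -0.09 after rescaling. Scd2 was the only gene of the set past a log2 fold change of 2 in size, which 2.37% of all tested genes passed downwards.

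Metformin before LPS lowered 6 of the 10 enzymes below their level with LPS alone, raised Acsl3 and gave no call for Fads1, Elovl5 and Acaca. Over all tested genes 18.0% were called lower and 14.5% higher (32.6% in all). The median of the 10 log2 fold changes was -0.43, and that of all tested genes was -0.03. No call among the 10 changed when the libraries were rescaled by the median ratio, with 17.4% of all genes then lower and 15.6% higher. With the added requirement of a log2 fold change of at least 0.7 in size, Fads2, Elovl6, Scd2 and Fasn were lower and none was higher. Of all genes 4.09% passed it downwards and 4.19% upwards. Acsl3, called at any fold (adjusted p = 0.000921), fell just short of this size at 0.63. Voom on the recovered reads called 7 of the 10 lower, Fads1 being the added gene, and 1 higher, beside 22.9% lower and 18.7% higher of all genes. With rescaling, voom called 6 lower and 1 higher, beside 2777 lower and 2530 higher of all 12750 genes in that fit.

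**Figure D2:**
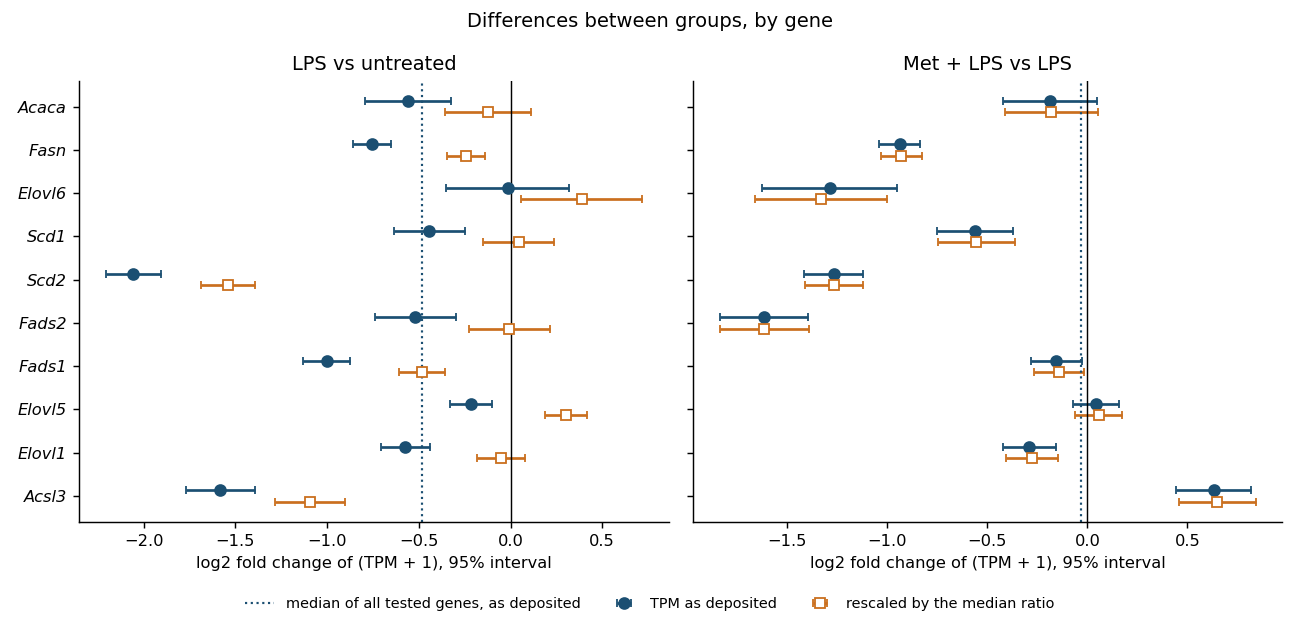
Log2 fold changes of (TPM + 1) on the x axis for the 10 genes (rows), with LPS against untreated on the left and Met + LPS against LPS on the right. Filled circles are the TPM as deposited, open squares the values after rescaling by the median ratio, bars 95% intervals from the limma fit over 6 libraries, and the dotted line the median of all tested genes; on the left the squares lie to the right of the circles by about the size of that median (-0.48), on the right circles and squares nearly coincide.

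Acaca (ENSMUSG00000020532, chr11:84129672-84401651 of GRCm38, plus strand) encodes the cytosolic acetyl-CoA carboxylase. Its level was 5.49 and 6.44 TPM in the Untr libraries, 3.64 and 3.80 in LPS, and 3.27 and 3.03 in Met + LPS. The groups did not overlap, with Untr highest and only a narrow gap between LPS and Met + LPS. LPS against untreated gave a log2 fold change of -0.56 ± 0.0979 (SE, adjusted p = 0.00153), a call that was lost after rescaling (-0.12, adjusted p = 0.293) and without Untr replicate 2 or LPS replicate 1 (range over left-out libraries -0.66 to -0.46). Metformin gave no call (-0.19, 95% interval -0.42 to 0.05, adjusted p = 0.164). Of the 31-base words in its exons 66.5% were found in no other gene, most of the rest being shared with the processed pseudogene Gm5182, which stood at no more than 0.0927 TPM, so that the Acaca level is less certain than the others.

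Fasn (ENSMUSG00000025153, chr11:120805846-120824547, minus strand) encodes fatty acid synthase, and its promoter window with 3 CCAAT matches is printed above. The libraries read 51.0 and 52.3 TPM in Untr, 30.0 and 30.4 in LPS, and 15.0 and 15.5 in Met + LPS. Each group lay apart from the others by far more than the gap between its libraries, so that LPS stood at 58.5% of the Untr mean and Met + LPS at 50.6% of the LPS mean. Its log2 fold change was -0.75 ± 0.0432 for LPS against untreated (SE, adjusted p = 7.07e-06), which shrank to -0.24 after rescaling and stayed called (adjusted p = 0.00236). For Met + LPS against LPS it was -0.94 ± 0.0432 (adjusted p = 2.13e-05), and -0.96 to -0.92 when libraries were left out in turn. Within each library Fasn stood 8.71 ± 0.822 times above Acaca in Untr and 8.12 ± 0.173 times in LPS, but 4.86 ± 0.375 times in Met + LPS, where neither library (4.60 and 5.13) reached the range of the other 4 (8.00 to 9.29).

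Elovl6 (ENSMUSG00000041220, chr3:129532355-129638495, plus strand) encodes the elongase that takes palmitate, the product of Fasn, to stearate. It was the least abundant of the 10 in every group. Untr libraries had 4.19 and 3.06 TPM, LPS libraries 3.70 and 3.39, and Met + LPS libraries 0.843 and 0.878. The LPS values lay between the Untr values, whereas the Met + LPS values were below all others, at 24.3% of the LPS mean. LPS against untreated was -0.016 (95% interval -0.35 to 0.32, adjusted p = 0.919), and after rescaling 0.39 (adjusted p = 0.0404). Met + LPS against LPS was -1.29 ± 0.140 (SE, adjusted p = 0.000532). Because the pseudocount of 1 is close to the Met + LPS level, this value understates the change: voom on the recovered reads, 41 and 50 in Met + LPS against 159 and 181 in LPS, gave -2.03. The other 9 genes were above 1 TPM in every library, and Elovl6 only in the Untr and LPS libraries.

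Scd1 and Scd2 are the stearoyl-CoA desaturases of these cells, since their paralogs Scd3 and Scd4 reached at most 0.0395 and 0.105 TPM. They lie on chromosome 19 on opposite strands (Scd1, ENSMUSG00000037071, chr19:44394451-44407709; Scd2, ENSMUSG00000025203, chr19:44293676-44306864), with 87587 bases between them. Scd2 stood at 78.4 and 82.2 TPM in Untr, 19.1 and 18.0 in LPS, and 7.47 and 6.78 in Met + LPS. This was the steepest descent of the set, to 23.1% of Untr with LPS and to 8.87% of Untr with metformin and LPS. Scd2 fell by 2.06 on the log2 scale with LPS (SE 0.0616, adjusted p = 4e-07), still by 1.54 after rescaling, and by a further 1.27 with metformin (SE 0.0616, adjusted p = 2.52e-05).

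Scd1 was lower than Scd2 to begin with and moved less. Its libraries held 14.6 and 14.3 TPM in Untr, 10.6 and 10.1 in LPS, and 7.25 and 6.21 in Met + LPS, with no overlap between groups. The LPS difference of -0.44 ± 0.0795 (SE, adjusted p = 0.00174) was gone after rescaling (0.045, adjusted p = 0.640), and the call was also lost without LPS replicate 2, Untr replicate 1 or Untr replicate 2. With metformin the difference was -0.56 ± 0.0795 (adjusted p = 0.00163), called after rescaling too. It ranged from -0.66 to -0.46 over left-out libraries, and its call was lost without LPS replicate 1, Untr replicate 1 or Untr replicate 2. Leaving out an Untr library keeps the size of this difference and changes only its SE and p-value. The ratio of Scd1 to Scd2 within a library was 0.174 and 0.187 in Untr, 0.559 and 0.561 in LPS, and 0.917 and 0.970 in Met + LPS. Scd2 transcripts thus outnumbered those of Scd1 by far in untreated cells and stood nearly level with them after metformin and LPS. Of the 31-base exon words of Scd1 and Scd2, 91.8% and 93.2% were found in no other gene.

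Fads2 and Fads1 carry out the desaturation steps of polyunsaturated fatty acid synthesis, Fads2 acting before and Fads1 after an elongation. They too lie on chromosome 19, on opposite strands with 81385 bases between them (Fads2, ENSMUSG00000024665, chr19:10064164-10101503; Fads1, ENSMUSG00000010663, chr19:10182888-10196870). Fads2 had 48.0 and 43.4 TPM in Untr, 32.6 and 30.5 in LPS, and 10.5 and 8.77 in Met + LPS. The metformin libraries lay far below the rest, at 30.6% of the LPS mean. The log2 fold change with metformin, -1.62 ± 0.0914 (SE, adjusted p = 4.38e-05), was the largest of the 10 on the log2(TPM + 1) scale, although Elovl6 stood at a smaller share of its LPS mean, and ranged from -1.74 to -1.50 over left-out libraries. The LPS difference of -0.52 ± 0.0914 (adjusted p = 0.00156) came to -0.01 after rescaling (adjusted p = 0.958) and lost its call without LPS replicate 2 or Untr replicate 1.

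Fads1 was lower with LPS and not called with metformin. Its libraries stood at 152 and 158 TPM in Untr, 76.9 and 76.6 in LPS, and 72.2 and 65.6 in Met + LPS. LPS brought it to 49.6% of Untr, whereas the Met + LPS libraries were only slightly below those of LPS. The LPS difference was -1.0 ± 0.0522 (SE, adjusted p = 4.6e-06) and -0.48 after rescaling (adjusted p = 0.000203). The metformin difference of -0.15 (95% interval -0.28 to -0.03) had an adjusted p of 0.0482 and was not called, although voom on recovered reads called it (adjusted p = 0.00772), a call lost when voom was run with rescaling (adjusted p = 0.0192). Accordingly the ratio of Fads1 to Fads2 was 3.16 and 3.64 in Untr, 2.36 and 2.51 in LPS, and 6.86 and 7.48 in Met + LPS.

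Elovl5 (ENSMUSG00000032349, chr9:77917364-77984519, plus strand), the elongase between the Fads2 and Fads1 steps, was the most even gene of the set. It had 82.2 and 76.3 TPM in Untr, 69.7 and 66.3 in LPS, and 69.9 and 70.3 in Met + LPS. The LPS and Met + LPS libraries all lay between 66.3 and 70.3 TPM, and the metformin difference was 0.043 (95% interval -0.07 to 0.16, adjusted p = 0.503). The difference between LPS and untreated turned with the scaling, from -0.22 ± 0.0482 (SE, adjusted p = 0.00485) as deposited to 0.30 (adjusted p = 0.00137) after rescaling. As deposited its call was lost without LPS replicate 2, Untr replicate 1 or either Met + LPS library (range -0.27 to -0.16). Without a Met + LPS library only the SE and p-value of this difference change, not its size. Set against Elovl6 within a library, Elovl5 stood 19.6 and 24.9 times higher in Untr, 18.8 and 19.6 times in LPS, and 80.0 and 82.8 times in Met + LPS.

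**Figure D3:**
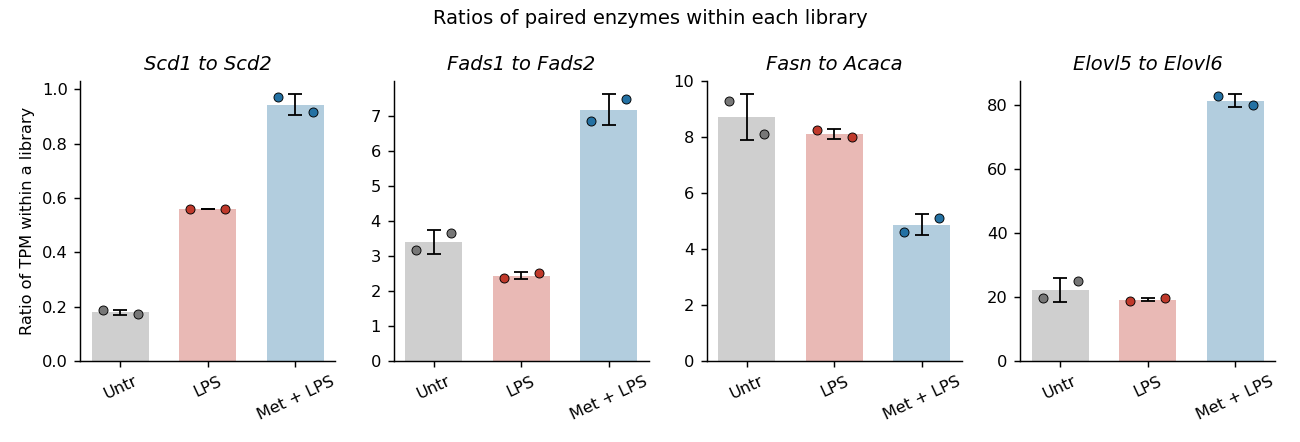
Ratio of the TPM of paired enzymes within each library (y axis, linear, from 0) in Untr, LPS and Met + LPS; points are libraries, bars means and error bars SDs of 2 libraries. Scd1 to Scd2 climbs in each step from 0.180 to 0.944, while Fads1 to Fads2 (7.17), Fasn to Acaca (4.86) and Elovl5 to Elovl6 (81.4) set the Met + LPS libraries apart from the other 4.

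Elovl1 (ENSMUSG00000006390, chr4:118428093-118432953, plus strand), which makes saturated and monounsaturated very-long-chain fatty acids for sphingolipids, was the most abundant of the 10 in every group. Its level was 198 and 207 TPM in Untr, 138 and 133 in LPS, and 105 and 117 in Met + LPS. The groups did not overlap, and the gap from LPS to Met + LPS was the smaller one. LPS against untreated was -0.57 ± 0.0552 (SE, adjusted p = 7.67e-05) and was not called after rescaling (-0.05, adjusted p = 0.434). Met + LPS against LPS was -0.29 ± 0.0552 (adjusted p = 0.00548), and -0.36 to -0.22 over left-out libraries. This call was lost when any library other than Met + LPS replicate 2 was left out. Without an Untr library only the SE and p-value of this difference change, not its size. The tested genes whose pattern over the 6 libraries was nearest to that of Elovl1, by the Euclidean distance of centred log2(TPM + 1), were Crtap (0.0548), Rnd2 (0.0619), Ei24 (0.0656), Cyb5a (0.0785) and Lancl1 (0.0878). Elovl1 shares 53 exon bases with Cdc20 on the opposite strand (8.53 to 27.6 TPM).

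Acsl3 (ENSMUSG00000032883, chr1:78657825-78707743, plus strand) encodes a long-chain acyl-CoA synthetase of the endoplasmic reticulum and lipid droplets, which activates fatty acids for use in lipids. It was the gene of the set that metformin raised. Untr libraries had 25.8 and 22.8 TPM, LPS libraries 7.42 and 7.42, and Met + LPS libraries 12.6 and 11.5. Met + LPS thus lay between the other groups, at 162% of LPS and 49.6% of Untr. The log2 fold change was -1.58 ± 0.0780 for LPS against untreated (SE, adjusted p = 3.68e-06), still -1.09 after rescaling, and 0.63 ± 0.0780 for Met + LPS against LPS (adjusted p = 0.000921), with 0.57 to 0.70 over left-out libraries. Acsl3 shares 244 exon bases on its strand with Utp14b, which had 6.76 and 6.36 TPM in Untr, 1.71 in each LPS library, and 2.12 and 2.28 in Met + LPS, and the part of reads from Utp14b in the Acsl3 values was not tested.

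Met + LPS was also compared with Untr, a comparison that shares its libraries with those above. Here 9 of the 10 genes were lower and 0 higher, beside 58.8% lower and 16.3% higher of all tested genes (75.1% in all). At an unadjusted p under 0.05 10 were lower and 0 higher (64.6% and 19.1% of all tested genes), as they were by voom on recovered reads at an adjusted p under 0.01 (60.7% and 17.8%). Scd2 stood at -3.32 on the log2 scale, Fads2 at -2.14, Fasn at -1.69, Elovl6 at -1.30, Fads1 at -1.16, Scd1 at -1.0, Acsl3 at -0.95, Elovl1 at -0.86 and Acaca at -0.74. The place of Elovl6 in this order depends on the pseudocount, since it stood at 23.7% of its Untr mean and Fasn at 29.6%, and voom gave -2.03 for Elovl6 and -1.74 for Fasn. Elovl5, the gene that was not called, was at -0.17 (adjusted p = 0.0132) and at 0.36 after rescaling (adjusted p = 0.000548), while Acaca lost its call after rescaling (-0.30, adjusted p = 0.0265). Rescaled, 8 of the 10 were lower and 1 higher, beside 29.7% and 33.4% of all tested genes. The median over the 10 was -1.08 as deposited and -0.57 after rescaling, beside -0.48 and 0.00046 over all tested genes. Past a log2 fold change of 2 in size on the log2(TPM + 1) scale were Scd2 and Fads2, both lower, as were 2.16% of all tested genes.

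Another 40 genes of the pathway in 6 lists were followed, of which 30 passed the filter of at least 1 TPM in at least 2 libraries. Met + LPS against LPS called 2 of them higher and 12 lower (2 and 10 after rescaling), beside 14.5% and 18.0% of all tested genes (15.6% and 17.4% after rescaling). Fewer of the 30 were called with any library left out, and so were fewer of all tested genes. With only the compared groups fitted, 1 was higher and 6 were lower, beside 1204 higher and 1458 lower of all 12755 genes. LPS against untreated called 5 higher and 17 lower as deposited, near the shares of all tested genes (16.2% higher and 60.1% lower). After rescaling 12 were higher and 4 lower, beside 30.6% and 27.6% of all tested genes, and Acly and Slc25a1 were called in the opposite direction. Met + LPS against untreated called 6 higher and 18 lower as deposited, and 11 higher and 12 lower after rescaling, beside 16.3% higher and 58.8% lower of all tested genes as deposited and 33.4% and 29.7% after rescaling. Each of the lower counts against untreated, as deposited and rescaled, includes Fads6. It passed the filter only through the Untr libraries, so that its lower level is a description. No gene was matched to the name Hsd17b8 of these lists, so it was not analysed here. Acacb, Mlxipl, Thrsp, Elovl2, Elovl3, Elovl4, Scd3, Scd4 and Acsl6 were below the filter.

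The supply of acetyl-CoA and NADPH to the pathway had 5 tested genes. With metformin 3 were lower, beside 18.0% of all tested genes, and 2 were not called. Slc25a1, the mitochondrial citrate carrier, had 104 TPM in LPS and 54.4 in Met + LPS (log2 fold change -0.92, adjusted p = 1.04e-05). Idh1, a cytosolic source of NADPH, went from 327 TPM in Untr to 192 in LPS and 103 in Met + LPS (-0.76 with LPS and -0.24 after rescaling, -0.89 with metformin). Acly, which splits citrate to acetyl-CoA, had 146, 114 and 90.2 TPM. Its metformin difference was -0.34, and its LPS difference turned from -0.35 to 0.18 after rescaling. Acss2 (0.12) and Me1 (0.26) were not called with metformin.

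Among 7 tested regulators, Srebf1, which encodes SREBP-1, had 72.2 TPM in Untr, 52.5 in LPS and 40.1 in Met + LPS. It was lower with metformin (-0.38, adjusted p = 0.00119) and lower with LPS as deposited (-0.45) but not after rescaling (0.07). Scap, the escort protein of SREBP, was the other regulator lower with metformin (-0.32), and Insig2, which retains Scap in the endoplasmic reticulum, was the one higher (0.26, adjusted p = 0.00425). Insig1, itself a known SREBP target, had 113, 130 and 137 TPM and was called in no comparison as deposited, but higher in both comparisons with untreated after rescaling (0.72 with LPS and 0.81 with metformin and LPS). Mid1ip1, an activator of acetyl-CoA carboxylase, was the regulator with the largest fall under LPS (-0.51, and 0.0086 after rescaling).

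In the elongation cycle, 4 of 7 tested enzymes were lower with metformin (2 after rescaling) and 3 were not called. Over all tested genes 18.0% were lower (17.4% after rescaling). Tecr, the reductase of the last step, had 162 TPM in Untr, 113 in LPS and 80.7 in Met + LPS (-0.48 with metformin, adjusted p = 0.000119). Hacd2, a dehydratase of the cycle, rose with LPS by 0.57 (1.06 after rescaling), and its relative Hacd4 fell by 0.69 as deposited but was not called after rescaling (-0.17). The desaturase list had 2 tested genes, Fads3 and Fads6, which were at -0.40 and 0.17 with metformin and were not called. Fads6 went from 2.61 TPM in Untr to 0.293 in LPS and 0.455 in Met + LPS (-1.48 with LPS, a value that the pseudocount of 1 makes small). It passed the filter only through the Untr libraries, so that its lower level in the other groups is a description.

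The other long-chain acyl-CoA synthetases moved unlike Acsl3 under LPS. All 3 tested, Acsl1, Acsl4 and Acsl5, were higher with LPS, also after rescaling, beside 16.2% of all tested genes called higher (30.6% after rescaling). Acsl1 had 21.0 TPM in Untr, 52.1 in LPS and 40.9 in Met + LPS, with log2 fold changes of 1.27 with LPS (adjusted p = 1.37e-06) and -0.34 with metformin (adjusted p = 0.00179). Acsl4, which prefers arachidonic acid, was higher with metformin (0.33, adjusted p = 0.00117). For mitochondrial fatty acid synthesis, a separate pathway that makes the lipoic acid precursor, 5 of 6 tested genes were lower with LPS, led by Oxsm (-1.44), beside 60.1% of all tested genes. After rescaling 2 were lower (27.6% of all) and Mecr was higher (0.71). With metformin 2 of the 6 were lower, led by Mcat (-0.60), beside 18.0% of all tested genes.

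**Figure D4:**
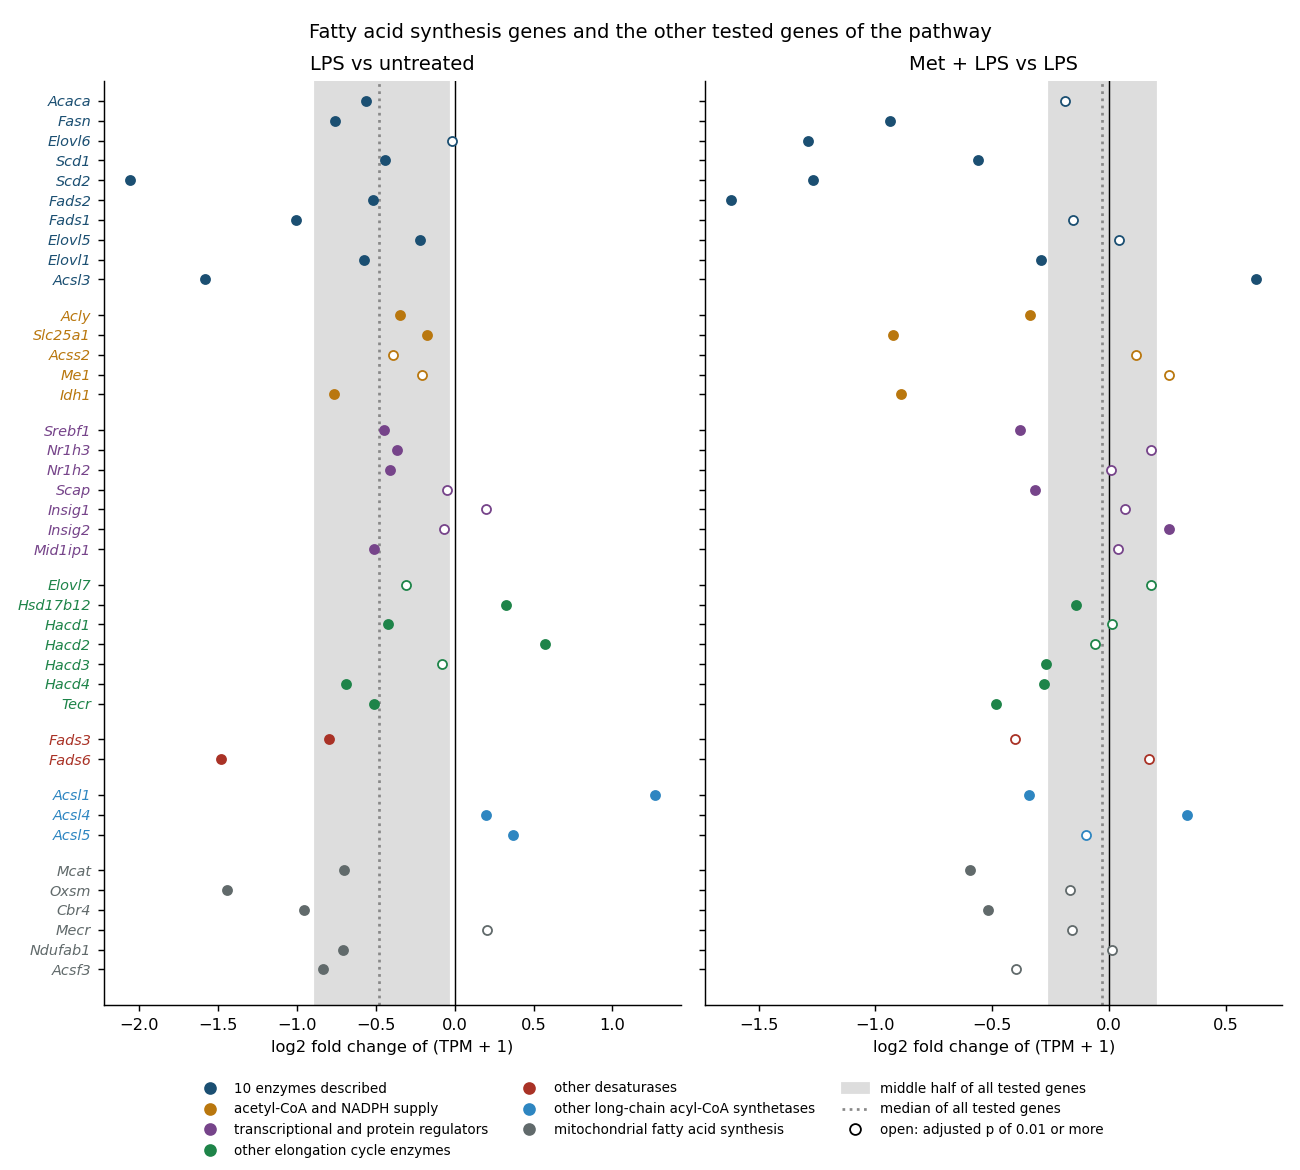
Log2 fold change of (TPM + 1) on the x axis for the 10 enzymes and the 30 other tested genes of the pathway (rows, coloured by list), for LPS against untreated (left) and Met + LPS against LPS (right). Filled points had an adjusted p under 0.01, the grey band spans the middle 50% of all tested genes and the dotted line is their median (-0.48 left, -0.03 right). In the right panel Fads2, Elovl6, Scd2, Fasn, Slc25a1 and Idh1 lie furthest to the left of the band. To its right lie Acsl3, which is furthest from it, and Acsl4, Me1 and Insig2.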

How the data were processed

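Poly-A RNA of 6 BMDM libraries was sequenced as single-end reads. The authors aligned the reads to GRCm38 with STAR 2.6.1d, counted them per gene with featureCounts of Subread 1.6.3, used SAMtools 1.9 and deposited TPM per library for 54532 genes. How the TPM were made is not given in the sources used here.

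The 12755 genes that reached 1 TPM in 2 or more of 6 libraries, all 10 enzymes among them, entered limma 3.58.1 under R 4.3.3 (lmFit, eBayes with trend) on log2(TPM + 1), which understates the change of low genes. All 6 libraries entered a common fit without covariates (3 residual degrees of freedom), and a gene was called at a Benjamini-Hochberg adjusted p under 0.01 over all tested genes. An exact permutation of 2 against 2 libraries cannot go below p = 0.333. The median-ratio scaling divides each library by the median of its ratios to the geometric mean over tested genes. Reads were recovered as TPM times exon length (GENCODE M21, GRCm38) over the library's smallest step. Of the nonzero values, those with the highest read numbers left out, 97.2 to 97.5% came out whole within 0.05. Scd1, Scd2, Fads1 and Fads2 did not come out whole, so that their reads are approximate. Voom was run on these reads, with and without rescaling. The limma fit on log2(TPM + 1) was tested on simulated data for Met + LPS against LPS only.

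The genes and lists were chosen with earlier results of these data known. Named among the other pathway genes are, per list and comparison, the called gene with the largest rise and fall, and Acly, Srebf1, Insig1, Scd3 and Acsl1; the remaining names were added where a count needed them. Tables were made in Python 3.11.15 with numpy 2.4.6 and pandas 2.3.3, figures with matplotlib 3.10.9. Promoter windows are from RefSeq (GRCm38.p6).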

Additional observations from a re-analysis of the deposited data

How the results depend on the processing

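Rescaling by the median ratio sets the median gene near 0 by construction, and whether total mRNA per cell changed was not tested. For LPS against untreated it left 4 of the 9 lower genes and called 1 higher, beside 27.6% lower and 30.6% higher of all tested genes. Voom on recovered reads with the same rescaling, an alternative chosen after seeing the data, left 4 lower and called 2 higher. That fit called 4028 lower and 4253 higher of all 12750 genes. The log2 fold changes that turned in this comparison were those of Scd1 (0.045 rescaled, 0.050 with voom), Elovl5 (0.30 and 0.31) and Elovl6 (0.39 and 0.50), and Elovl6, near 0 as reported, ranged from -0.19 to 0.16 over left-out libraries, turning without Untr replicate 1 (0.16) and LPS replicate 2 (0.033). In Met + LPS against untreated, Elovl5 turned to 0.36 under either rescaling, which gave 1 gene higher. Over all tested genes 33.4% were then higher by limma, and 4579 of 12750 by voom. The fold cut-offs of the study left 1 gene lower for LPS and 2 for Met + LPS against untreated, and 0 higher for Met + LPS against LPS. Those cut-offs called 776, 1056 and 682 of all genes in the 3 comparisons, in place of 9734, 4156 and 9576. These are calls by limma on TPM and not the counts of the study, which used DESeq2. For Met + LPS against LPS, all genes called also came to 2561 to 2759 with a library left out, 2662 with only the compared groups fitted and 2792 without the filter. Elovl1 lost its call under both and without the eBayes trend (adjusted p = 0.0207, 0.0245 and 0.0223), and Scd1 lost its call with only the compared groups fitted (adjusted p = 0.0113). Elovl5 lost its call for LPS against untreated under the same 3 settings. Elovl6 was not tested at a minimum of 5 TPM. With a pseudocount of 0.1 its metformin difference was -1.92.

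Deviations from the group means of same-numbered libraries correlated at -0.0037, 0.0062 and 0.028 over 12755 genes. Such correlations cannot show whether same-numbered libraries were paired, and the sources used here do not say. With the replicate number as a block, 9641, 3956 and 9436 calls were made over all genes, and no call among the 10 genes changed. Every group holds both replicate numbers, so the block cannot change a difference between groups, only its SE. The SE of the Fads2 metformin difference went from 0.0914 to 0.0544. Depth limits Elovl6 most, which rests on 41 to 205 reads per library.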
